A study of Mus musculus with 4 samples.

Results

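The 10 genes described here are a chosen set of those that encode amino acid transporters of the plasma membrane: Slc3a2, Slc7a5, Slc7a6, Slc7a11, Slc7a1, Slc1a4, Slc1a5, Slc38a1, Slc38a2 and Slc38a5. Probes were found by gene symbol, and 14 of the array's 55681 probes outside the controls carried 1 of these symbols, out of 24278 genes named on the array. RNA of progenitors sorted from adult mouse bone marrow was hybridised to 4 single-colour arrays, 1 for each of 4 groups: LSK cells and CLP cells of wild-type (WT) littermates, and LSK cells and CLP cells of SFRP5-transgenic mice. LSK cells are lineage-negative, high for c-kit and positive for Sca-1, and hold the stem cells and multipotent progenitors of blood. The CLP sort takes lineage-negative cells that are low for c-kit and Sca-1 and positive for IL7Rα, and is enriched for common lymphoid progenitors. The series asked which genes respond to SFRP5, a secreted protein that binds Wnt ligands and restrains their signal. The promoter of the transgene, the number and age of the mice behind each sample and the strain were not stated in the labels. With 1 array per group no difference has a replicate check and no test was made, so "higher" and "lower" describe these 4 arrays.

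Cells take up amino acids through carriers that differ in what they move and in what drives them. CD98, the product of Slc3a2, is a heavy chain that brings several light chains to the cell surface, among them the exchangers of large neutral, cationic and acidic amino acids. Sodium-driven carriers of the SLC1 and SLC38 families load the cell with alanine, serine and glutamine, which the exchangers can trade for leucine and other essential amino acids. Leucine and arginine inside the cell signal to the growth kinase mTORC1, and a shortage raises the transcription factor ATF4, for which several of these transporter genes are known targets. In bone marrow, red cell precursors and dividing lymphoid precursors have a high demand for amino acids.

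Signals are given as log2 intensity minus the 75th percentile of the same array, so that 0 is a fairly bright spot of that array. Each level refers to 1 probe, and levels of different genes cannot be set against each other. Between replicate spots of 1 probe on 1 array the median SD was 0.0586 to 0.0706 at or above that percentile and 0.106 to 0.118 for probes up to 3 log2 units below it. For a difference between 2 spots the largest of the former, 0.0706, gives an SD of 0.0999. This spread covers neither cells, mice nor amplification. The sort labels were set against marker genes. Of 7 LSK markers 6 were measured between the WT sorts, and 5 of them were at least 2-fold lower in CLP. Between the SFRP5 sorts 5 of 7 were, while Mecom (0.43) and Mllt3 (0.07) lay above 0. Hlf and Procr, stem cell genes, were closer to LSK levels in SFRP5 CLP than in WT CLP. Hlf was higher by 3.71 in SFRP5 CLP, and Procr was well above background there (-0.55) but not in WT CLP. The part of this in the CLP genotype differences was not tested. Xist, the RNA of the inactive X chromosome and a marker of female cells, stood at 4.99 and 4.50 in the SFRP5 arrays of LSK and CLP. It was not well above background in either WT array (-6.61 and -6.76). A difference in the sex of the mice and genotype thus cannot be told apart in any genotype difference given here. Of the 5 CLP markers 3 were at least 2-fold higher in CLP in both genotypes, with Il7r, whose product is gated on, at 3.03 in WT and 2.24 in SFRP5. Flt3, which common lymphoid progenitors also carry, was lower by contrast, at -2.71 and -2.78. Markers of the B lineage (6 of 6 measured at least 2-fold higher in CLP in both genotypes), erythroid cells (5 of 6), mast cells and basophils (3 of 3 in WT, 2 of 2 in SFRP5) and granulocytes and monocytes (6 of 7) were also higher in the CLP sort. The 3 measured T and NK cell markers had medians of -0.82 in WT and -0.53 in SFRP5. Of them 1 was at least 2-fold higher in CLP in each genotype and 1 lower in WT. Megakaryocyte markers had 1 of 5 higher in WT and 2 of 5 in SFRP5, with 0 lower. Stroma and endothelium markers had 1 of 2 higher in WT, and 1 of 3 higher and 1 lower in SFRP5. Among these, Col1a1 was well above background in both SFRP5 arrays and in neither WT array. In such bulk samples fewer cells of a type and less RNA per cell cannot be told apart, for these markers and for the transporters alike.

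Of the 10 transporter genes, 9 were well above background on all 4 arrays by the scanner software's flag, as were 62.5% of all genes. Slc7a11 was above background on none. The 9 others were thus measured in all 4 comparisons, and none was saturated. Between the WT sorts 2 members were at least 2-fold higher in CLP (Slc38a5 and Slc7a5) and 1 at least 2-fold lower (Slc7a6), where 17.8% of 16016 measured genes passed 2-fold upward and 14.3% downward, 32.1% together. Between the SFRP5 sorts 1 member, Slc38a5, was at least 2-fold higher and 0 lower, against 11.5% and 11.0% of 15713 genes, 22.5% together. Between the genotypes no member reached 2-fold, in either sort. In LSK, 6.57% of 16125 genes passed 2-fold upward in SFRP5 and 7.17% downward (13.7% together), and in CLP 4.25% and 4.30% of 15942 (8.56% together). With so few genes the counts lie near the background shares, and the members are better described 1 by 1.

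**Figure D1:**
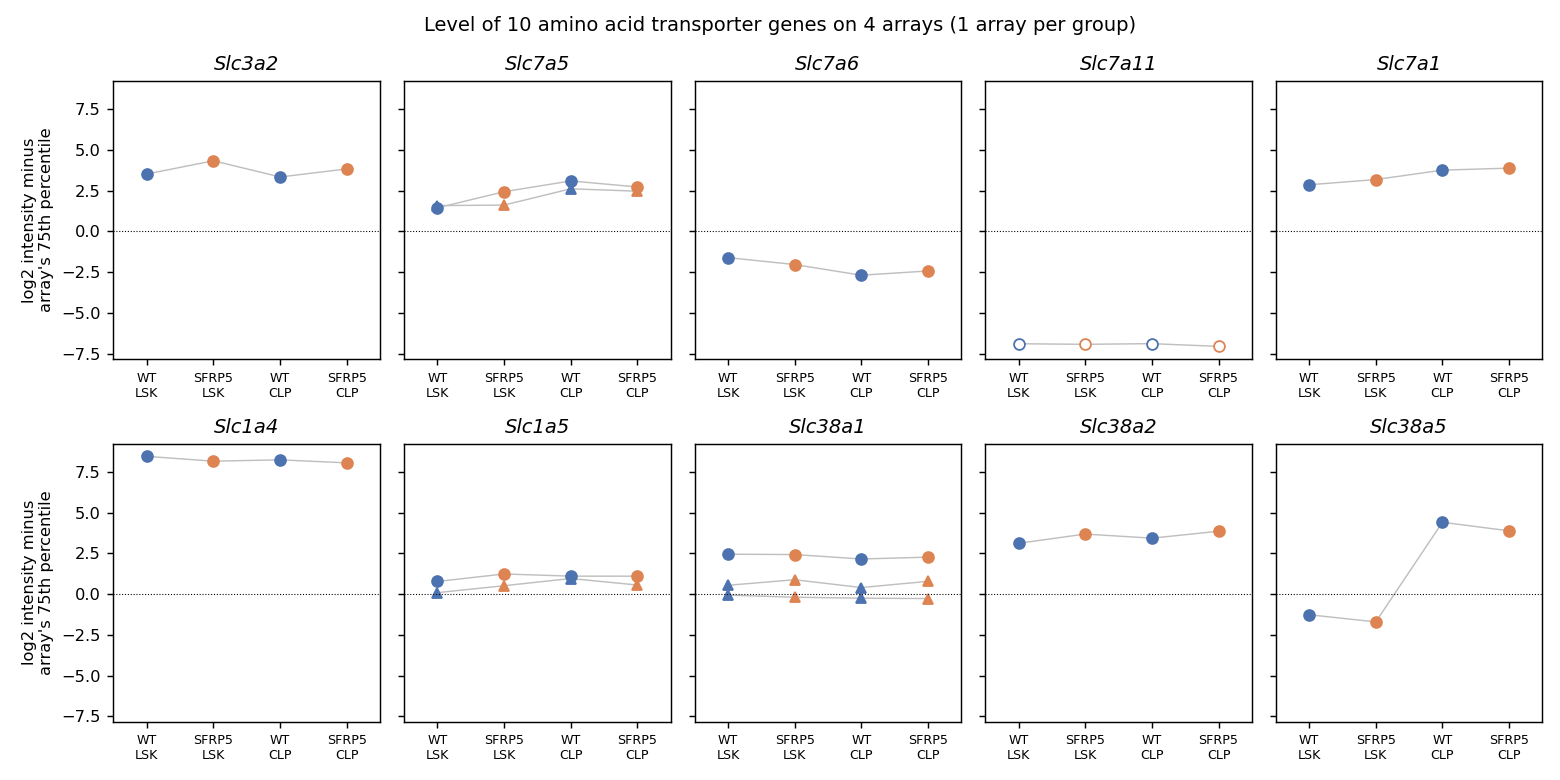
Level of each of the 10 transporter genes on the 4 arrays, as log2 intensity minus the array's 75th percentile, with wild-type arrays in blue and SFRP5 arrays in orange. Circles are the brightest probe of a gene and triangles its further probes, and open symbols are not well above background. Slc38a5 went from -1.26 and -1.70 in LSK to 4.42 and 3.89 in CLP, and Slc7a11 was below background throughout.

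The sodium-driven carriers of the SLC38 family held the member that differed most. Slc38a5 encodes SNAT5, which moves glutamine, asparagine, histidine, serine and glycine in exchange for protons. Its level stood at -1.26 (WT) and -1.70 (SFRP5) in LSK and at 4.42 (WT) and 3.89 (SFRP5) in CLP, from an intensity of 115.2 in WT LSK to 4858 in WT CLP. Both CLP arrays lay far above both LSK arrays. The difference was 5.68 in WT (51.3-fold) and 5.60 in SFRP5 (48.4-fold). It ran from 4.90 to 6.06 in WT and from 4.73 to 5.68 in SFRP5 over the other ways of processing. Among all measured genes it was the 34th highest difference in WT and the 14th highest in SFRP5. Slc38a5 was also lower on the SFRP5 array than on the WT array of each sort, by -0.44 in LSK and -0.53 in CLP. The LSK value shrank to -0.29 with quantile normalization and -0.12 with centring on the array median.

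The stretch of the X chromosome before the Slc38a5 start site is shown because this gene carries the clearest difference. It is the 250 bases before the RefSeq start (GRCm38.p6, plus strand, chrX:8271131-8271380), written 5′ to 3′, with the E-box CACGTG in capitals, the site that MYC and related factors bind.
Slc38a5: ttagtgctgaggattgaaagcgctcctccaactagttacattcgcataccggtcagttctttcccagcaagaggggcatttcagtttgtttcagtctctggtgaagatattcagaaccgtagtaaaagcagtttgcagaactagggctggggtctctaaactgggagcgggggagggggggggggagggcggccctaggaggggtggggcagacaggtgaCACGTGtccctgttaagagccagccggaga
The E-box lies 30 bases before the start, and 6.02% of 32851 RefSeq promoter windows of this length hold this palindrome. The GATA motif AGATAA, searched on both strands, was in 9.99% of the windows and in that of no member, which says only that these letters are not in these bases. Promoter windows were found for 7 of the 10 genes (Slc3a2, Slc7a1, Slc7a6, Slc7a11, Slc1a4, Slc38a2 and Slc38a5).

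Most erythroid markers shared the gap of Slc38a5 between the sorts, as did markers of some other lineages. Klf1, a red cell transcription factor, was higher in CLP by 4.64 in WT and 4.53 in SFRP5, and Gata1, which governs the red cell programme, by 4.58 and 4.74. Rhag, part of the Rh complex of the red cell membrane, was higher by 7.05 and 6.74. Of 6 erythroid markers 5 were at least 2-fold higher in CLP in each genotype, with medians of 4.61 and 4.04. Ermap, a red cell membrane protein, was an exception, at -0.58 and 0.04. The summed linear level of the 6 markers, relative to the array's 75th percentile, stood at 18.3 (WT) and 12.4 (SFRP5) in LSK and at 91.8 (WT) and 62.8 (SFRP5) in CLP. Ermap was by far the brightest of the 6 in LSK, at 3.94 (WT) and 3.20 (SFRP5). The LSK sums thus mainly reflect Ermap and do not describe the other markers. In CLP all 6 were lower in SFRP5 than in WT, with a median of -0.60 beside the -0.53 of Slc38a5. In LSK 4 of 6 were lower, with a median of -0.33 beside -0.44, and that median turned to 0.05 with centring on the array median. Mast cell and basophil markers also stood higher in CLP, with medians of 5.14 over 3 measured in WT and 4.20 over 2 in SFRP5. In CLP all 6 of them were lower in SFRP5, with a median of -0.46. B lineage markers had sort medians of 4.19 in WT and 3.90 in SFRP5, and granulocyte and monocyte markers 3.17 and 2.04. Between genotypes in CLP the medians of these lists were 0.27 and 0.02. The parts of erythroid cells, of mast cells and basophils and of these other cells in the Slc38a5 differences were not tested. Slc38a5 is itself X-linked, as is Xist.

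The 3 genes whose profile over the 4 arrays lay closest to that of Slc38a5, among 15178 genes above background on all arrays, were Tspan33, Bcl2l15 and Sphk1. The distance, the root of the summed squared deviations after each gene was centred on its own mean, was 0.12 for Tspan33, 0.19 for Bcl2l15 and 0.40 for Sphk1. Tspan33, a tetraspanin, stood at -0.15 (WT) and -0.65 (SFRP5) in LSK and at 5.44 (WT) and 5.07 (SFRP5) in CLP. Sphk1, which makes sphingosine 1-phosphate, was higher in CLP by 5.61 in WT and 5.17 in SFRP5. With 4 arrays the likeness mainly says that these genes share a large gap between the sorts.

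**Figure D2:**
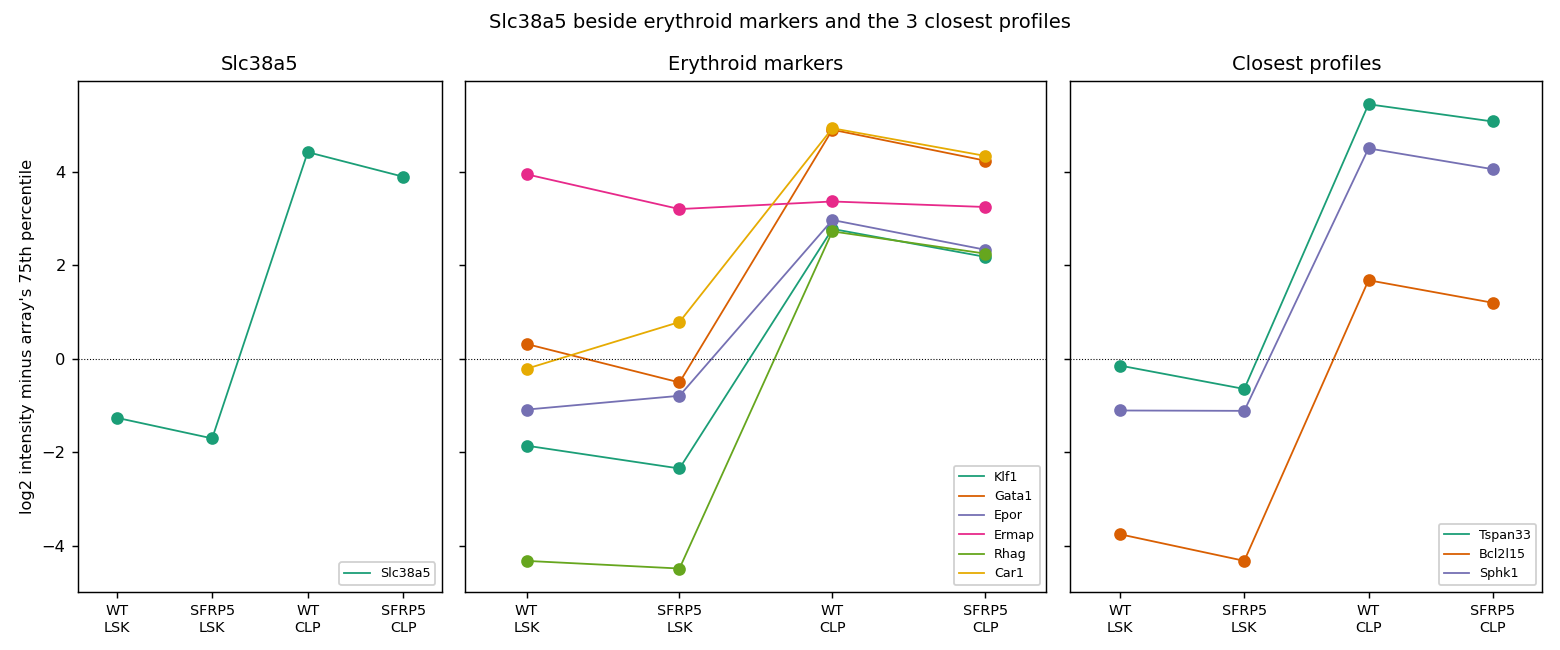
Levels on the 4 arrays of Slc38a5 (left), the 6 erythroid markers (middle) and the 3 genes with the closest profile (right), as log2 intensity minus the array's 75th percentile. All points are well above background. All lines except that of Ermap run from a lower level in both LSK arrays to a higher level in both CLP arrays.

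The other SLC38 genes showed no such gap. Slc38a1 and Slc38a2 encode SNAT1 and SNAT2, which carry glutamine, alanine and other small neutral amino acids with sodium, and SNAT2 is known to be raised when amino acids run short. Slc38a2 stood at 3.13 (WT) and 3.69 (SFRP5) in LSK and at 3.44 (WT) and 3.87 (SFRP5) in CLP. Both SFRP5 arrays were above both WT arrays. The genotype difference was 0.57 in LSK and 0.42 in CLP and stayed between 0.39 and 0.89 and between 0.42 and 0.56 over the alternatives, whereas the sort difference, 0.32 in WT and 0.17 in SFRP5, turned negative with quantile normalization, cyclic loess and the authors' scaling. Slc38a1 stood at 2.46, 2.43, 2.16 and 2.28 in WT LSK, SFRP5 LSK, WT CLP and SFRP5 CLP. It was lower in CLP in both genotypes, at -0.30 and -0.16, with a range over the alternatives of -0.71 to 0.08 in WT and -0.35 to -0.06 in SFRP5, and its further probes gave -0.19 and -0.14 in WT and -0.08 and -0.10 in SFRP5. In WT all 3 probes turned positive with centring on the array median. Its genotype difference was within the replicate spot spread in LSK for the brightest probe (-0.02, positive with normexp and centring on the array median), but the third probe gave 0.34 in LSK and 0.38 in CLP.

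CD98 and its light chains make up the exchangers. The heavy chain gene Slc3a2 stood at 3.53 (WT) and 4.35 (SFRP5) in LSK and at 3.35 (WT) and 3.84 (SFRP5) in CLP. Both SFRP5 arrays were above both WT arrays, as for Slc38a2. The genotype difference of Slc3a2 was 0.81 in LSK (1.76-fold) and 0.50 in CLP (1.41-fold), with ranges of 0.63 to 1.13 and 0.50 to 0.60 over the alternatives. The sort difference was -0.18 in WT, but -0.70 with quantile normalization, -0.66 with cyclic loess, -0.60 with the authors' scaling and 0.19 with centring on the array median. In SFRP5 it was -0.50, with a range of -0.79 to -0.42. Early response genes were higher on the same arrays. Of 12 such genes 9 passed 2-fold upward in LSK of SFRP5 and 8 in CLP, with none downward and medians of 1.39 and 1.15. Between sorts they were mostly lower in CLP, 4 of 12 by at least 2-fold in WT and 5 of 12 in SFRP5, with 1 and 0 higher and medians of -0.56 and -0.96. Nr4a1, a nuclear receptor, was at -3.37 in WT and -2.56 in SFRP5, Egr1, a zinc finger factor, at -1.63 and -1.32, Klf4 at 1.31 and 0.45 and Btg2 at 0.98 and -0.29. The part of this list in the Slc3a2 and Slc38a2 values was not tested.

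Slc7a5 encodes LAT1, the light chain that exchanges leucine and other large neutral amino acids. Its brighter probe stood at 1.45 (WT) and 2.44 (SFRP5) in LSK and at 3.11 (WT) and 2.74 (SFRP5) in CLP, so that both CLP arrays were above both LSK arrays. The difference between sorts was 1.65 in WT (3.15-fold) and 0.29 in SFRP5 (1.23-fold). The further probe placed the arrays in the same order of sorts, at 1.59 and 1.62 in LSK and 2.62 and 2.48 in CLP, but with differences of 1.03 in WT and 0.85 in SFRP5. The brighter probe gave a genotype difference of 0.99 in LSK and the further probe 0.03, a gap well beyond the spread of replicate spots. In SFRP5 the sort difference of the brighter probe shrank to 0.08 with quantile normalization, 0.11 with the authors' scaling and 0.12 with cyclic loess, near the 0.0999 of replicate spots. In WT both probes were higher in CLP under every scaling run, by at least 1.24 and 0.62.

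Slc7a6 encodes y+LAT2, which trades cationic for neutral amino acids. It was a dim probe, at -1.61 (WT) and -2.03 (SFRP5) in LSK and at -2.69 (WT) and -2.43 (SFRP5) in CLP. Both CLP arrays were below both LSK arrays. The difference was -1.08 in WT and -0.40 in SFRP5, and in WT it dropped below 2-fold with normexp (-0.41), quantile normalization (-0.78), cyclic loess (-0.74) and centring on the array median (-0.71). Its genotype difference was -0.43 in LSK and 0.26 in CLP, the latter -0.08 with normexp.

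Slc7a11 encodes xCT, the light chain that imports cystine for glutathione synthesis in exchange for glutamate. Its only probe gave intensities at 2.31 (WT) and 2.27 (SFRP5) in LSK and at 1.91 (WT) and 2.18 (SFRP5) in CLP and was not well above background on any array. No fold is given. The bases before its start are shown because it was the only member whose window holds TGATGCAA, a form of the amino acid response element that ATF4 binds, and the only one not detected. They are 250 bases of the minus strand of GRCm38.p6, chr3:50443614-50443863, written 5′ to 3′, with the element in capitals where it reads forward and where its reverse complement stands.
Slc7a11: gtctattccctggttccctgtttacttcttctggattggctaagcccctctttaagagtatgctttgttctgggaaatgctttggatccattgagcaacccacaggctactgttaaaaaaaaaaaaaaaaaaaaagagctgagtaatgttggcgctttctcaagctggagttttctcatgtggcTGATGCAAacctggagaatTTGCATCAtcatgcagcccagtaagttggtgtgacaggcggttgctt
The copies begin 66 and 47 bases before the start. Of 32851 windows 0.791% hold the element on either strand. The antioxidant response core TGACNNNGC, searched on both strands with N as any base, was in 10.2% of windows and in those of 3 members (Slc7a1, Slc7a6 and Slc38a2).

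Slc7a1 encodes CAT1, the main carrier of arginine and lysine in most dividing cells. It stood at 2.87 (WT) and 3.19 (SFRP5) in LSK and at 3.77 (WT) and 3.89 (SFRP5) in CLP. Both CLP arrays were above both LSK arrays, by 0.90 in WT (1.87-fold) and 0.70 in SFRP5 (1.63-fold). The ranges over the alternatives were 0.39 to 1.28 and 0.44 to 0.78, all above 0. Genotype differences were 0.32 in LSK and 0.12 in CLP.

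The SLC1 carriers of alanine, serine and cysteine stayed within 2-fold in all 4 comparisons, and their values depended on the scaling or the probe. Slc1a4, which encodes ASCT1, stood at 8.47 (WT) and 8.17 (SFRP5) in LSK and at 8.26 (WT) and 8.07 (SFRP5) in CLP, with intensities from 69420 to 97970. Its only probe was lower in SFRP5, at -0.30 in LSK and -0.19 in CLP. The LSK value ran from -0.54 with cyclic loess to 0.02 with centring on the array median, and the CLP value turned to 0.08 with quantile normalization or cyclic loess. The sort difference was -0.21 in WT, with -0.96 under cyclic loess, -0.63 under the authors' scaling and 0.16 under centring on the array median. In SFRP5 it was -0.10, with a range of -0.34 to -0.03. Slc1a5 encodes ASCT2, a main route for glutamine into dividing cells. Its brighter probe stood at 0.78 (WT) and 1.24 (SFRP5) in LSK and at 1.11 (WT) and 1.10 (SFRP5) in CLP. WT LSK was the lowest array with that probe and with the further one, which gave 0.09, 0.52, 0.96 and 0.56. Between the WT sorts the probes gave 0.33, or -0.09 with the authors' scaling, and 0.87 (1.83-fold), with 0.45 to 1.25 over the scalings for the further probe. The genotype difference in LSK was 0.46 and 0.43 by the 2 probes and 0.33 to 0.78 over the alternatives. In CLP the probes gave -0.00 and -0.40.

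**Figure D3:**
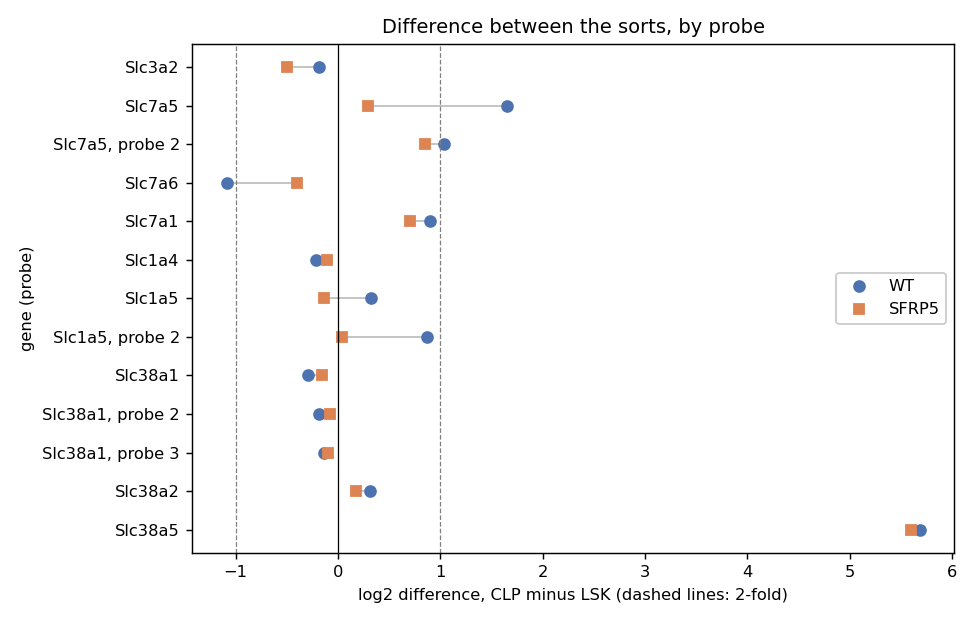
Log2 difference between CLP and LSK for each probe above background on all 4 arrays, in WT (circles) and SFRP5 (squares), with dashed lines at 2-fold. Slc38a5 lies at 5.68 and 5.60, Slc7a5 and Slc7a1 lie above 0 in both genotypes, Slc7a6 lies below 0 in both, and the further probe of Slc7a5 gives 1.03 and 0.85 where the brighter probe gives 1.65 and 0.29.

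Over the 9 measured members, the median difference between sorts was 0.32 in WT and -0.10 in SFRP5, beside 0.02 in both over all measured genes. Over genes that reached the 75th percentile on either array of the pair it was 0.32 in WT and 0.11 in SFRP5. Of the 9, 5 were above 0 in WT and 4 in SFRP5. The WT median turned to -0.18 with quantile normalization, -0.15 with cyclic loess and -0.10 with the authors' scaling, so no direction of the group as a whole is given. The median difference between genotypes was 0.32 in LSK, where all measured genes had 0.02 and bright genes 0.18, and 0.11 in CLP, where they had -0.04 and -0.03. In each sort 5 members were above 0 and 4 below. Slc3a2, Slc38a2 and Slc7a1 were above 0 and Slc38a5 and Slc1a4 below 0 in both sorts, with the exceptions for Slc1a4 given above. The comparisons in the same sort or genotype share arrays.

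**Figure D4:**
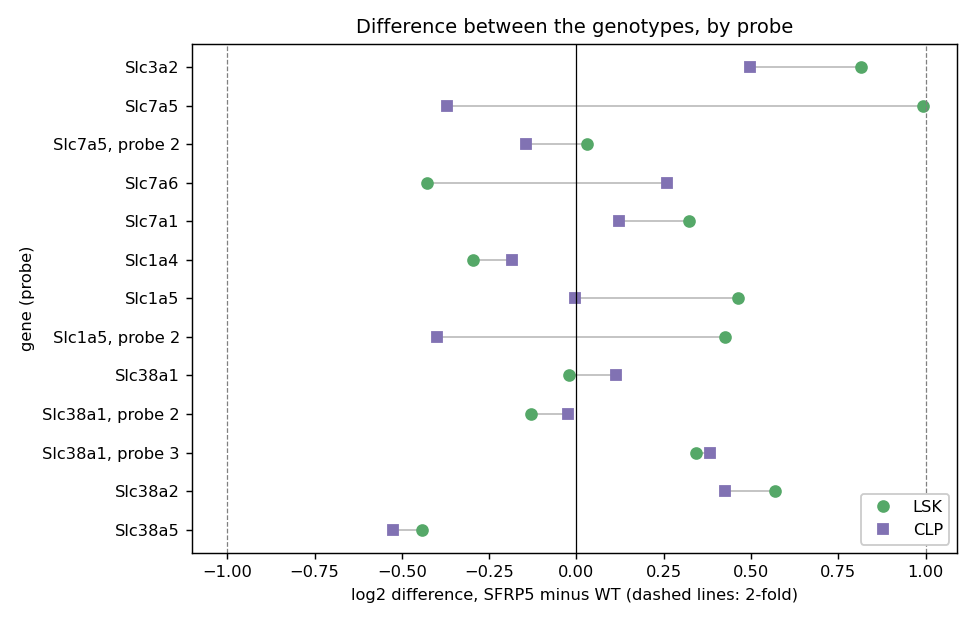
Log2 difference between SFRP5 and WT for each probe above background on all 4 arrays, in LSK (circles) and CLP (squares), with dashed lines at 2-fold. All probes lie within 2-fold. Slc3a2 and Slc38a2 lie above 0 and Slc38a5 below 0 in both sorts, and the probes of Slc7a5 and Slc38a1 differ among themselves.

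Genes that work with these transporters were described as lists. Highest and lowest genes are by the mean sort difference of both genotypes, among genes above background on all 4 arrays. List counts, and those of markers and early response genes above, stand beside the 2-fold shares over all genes. The shares were 17.8% higher and 14.3% lower in CLP in WT and 11.5% and 11.0% in SFRP5. Between genotypes they were 6.57% and 7.17% in LSK and 4.25% and 4.30% in CLP. Of the further partners of the CD98 family, Slc7a7 (y+LAT1) was higher in CLP by 1.09 in WT and 0.91 in SFRP5. Slc7a8 (LAT2) was at -0.24, or 0.14 with centring on the array median, and -0.80. Slc3a1, the heavy chain of the kidney cystine carrier, was at -0.12 in WT and 0.19 in SFRP5, with a change of sign in WT under quantile normalization, cyclic loess and centring on the array median. Slc7a9 and Slc7a10 were not above background on any array. Among 37 other plasma membrane amino acid transporters, 17 were measured between the WT sorts, with 5 at least 2-fold higher in CLP and 2 lower, and 16 between the SFRP5 sorts, with 4 higher and 1 lower. Over the scalings the upward count ran from 2 to 6 in WT and from 0 to 5 in SFRP5. The highest were Slc43a1, a leucine and phenylalanine carrier (2.86 and 1.26), and Slc16a10, an aromatic amino acid carrier (2.50 and 1.37). The lowest were Slc43a2 (-1.61 and -1.45), a close relative of Slc43a1, and Slc7a4 (-1.35 and -0.36). Between genotypes 1 was at least 2-fold higher and 1 lower in each sort, of 18 measured in LSK and 16 in CLP.

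Carriers inside the cell were counted likewise. Of 10 lysosomal amino acid transporter genes 8 were measured between the WT sorts and 7 between the SFRP5 sorts. With the main scaling 1 reached 2-fold, Mfsd12, a lysosomal cysteine importer (0.97 in WT, 1.48 in SFRP5). Over the scalings 0 to 1 were higher and 0 to 2 lower in WT. In SFRP5 1 was higher and 0 lower under each. Ctns, the cystine exporter, was at 0.62 and 0.49, Slc36a1 at -0.91 and -0.72 and Slc38a7 at -0.75 and -0.43. Of 11 mitochondrial carriers 3 were at least 2-fold higher and 1 lower between the WT sorts. Between the SFRP5 sorts 2 of 10 were higher and 3 lower. Over the scalings the upward count ran from 1 to 4 in WT and from 1 to 2 in SFRP5. Slc25a38, the glycine carrier that haem synthesis needs, was higher in CLP by 3.05 in WT and 2.29 in SFRP5. Slc25a2, an ornithine carrier, was at 0.99 and 1.65, Sfxn3 at -1.09 and -1.23 and Slc25a18 at -0.12 and -1.49, with a change of sign for Slc25a18 in WT under 4 of 5 other scalings. Between genotypes 1 of 10 mitochondrial carriers was at least 2-fold higher in LSK, and 0 of 11 in CLP, and none of the 7 lysosomal genes measured in each sort reached 2-fold. Slc66a1, a lysosomal exporter of cationic amino acids, was not among them, since it was well above background in both WT arrays and in neither SFRP5 array.

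Genes that ATF4 activates, and that amino acid shortage raises, were counted next. Of 22 measured between the WT sorts 9 were at least 2-fold higher in CLP and 3 lower, with a median of 0.72, and between the SFRP5 sorts 4 of 23 were higher and 4 lower, with a median of 0.27. Over the scalings the WT counts ran from 4 to 11 higher and 2 to 5 lower with a median of 0.31 to 1.10, and the SFRP5 counts from 2 to 6 and 4 to 5. Asns, which makes asparagine, was higher by 3.80 in WT and 3.87 in SFRP5, and Mthfd2, an enzyme of mitochondrial folate metabolism, by 2.29 and 2.78. Nupr1 (-0.82 and -2.86) and Ddit4 (-0.76 and -0.78), an inhibitor of mTORC1, were lowest by the mean of both genotypes. Neither was among the 3 that were at least 2-fold lower in WT. Atf4 itself was at 0.87 and 0.45. In LSK 4 of 24 passed 2-fold upward in SFRP5 and 2 downward, and in CLP 2 of 22 higher and 1 lower. Genes of glutathione, whose synthesis uses the cystine that xCT imports, and of the antioxidant response were counted together. Of those measured, 8 of 12 were at least 2-fold higher in CLP in WT and 6 of 13 in SFRP5. In WT 0 were lower and in SFRP5 1, with medians of 1.42 and 0.70. Over the scalings 5 to 9 were higher in WT and 5 to 6 in SFRP5. Gsr, glutathione reductase, was higher by 2.09 and 2.11, and Nqo1, a quinone reductase, by 2.38 and 2.56. Srxn1 was at -0.55 and -0.31, and Hmox1, haem oxygenase, at 0.06 and -1.40, with the first turning negative under normexp and the authors' scaling (-0.35). Between genotypes that list had 0 higher and 1 lower in each sort, with medians of 0.36 in LSK and -0.43 in CLP.

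Genes that sense or use amino acids were counted in the same way, and the mTORC1 counts between sorts lay near the shares over all genes. Of 35 measured genes of mTORC1 and its amino acid sensors 7 were at least 2-fold higher in CLP in WT and 3 lower, and 4 higher and 6 lower in SFRP5. Over the scalings these counts ran from 4 to 14 and 2 to 6 in WT and from 2 to 4 and 3 to 7 in SFRP5. Sesn1 (-1.33 and -1.79) and Sesn3 (-1.40 and -1.69), both sestrins, were lowest, and Rragd (1.80 and 0.61) and Sar1b (1.71 and 1.65) highest. Between genotypes 4 of 36 were higher and 3 lower in LSK, and 1 higher and 1 lower of 35 in CLP. Of the enzymes that use amino acids 4 of 17 were higher and 1 lower in CLP in WT, and 4 of 16 higher and 0 lower in SFRP5, led by Bcat2 (1.62 and 1.87) and Bcat1 (1.56 and 1.85), which transaminate branched-chain amino acids. Over the scalings 3 to 7 were higher in WT and 3 to 4 in SFRP5. Il4i1 (-1.60 and -0.86) and Glul (-0.20 and -0.98), glutamine synthetase, were lowest, and Glul turned to 0.17 in WT with centring on the array median. Between genotypes 0 of 16 reached 2-fold in LSK and 2 of 18 were higher in CLP. Division genes, set beside the transporters as a measure of cycling, were at least 2-fold higher in CLP for 14 of 15 in WT and 9 of 15 in SFRP5, with medians of 1.73 and 1.08, and for 11 to 15 and 6 to 11 over the scalings. Rrm2, a ribonucleotide reductase subunit, was at 3.05 and 2.20 and Ccnb1, cyclin B1, at 2.20 and 1.77. Top2a, a topoisomerase, at 1.17 and 0.51, and Mcm3, a replication helicase subunit, at 0.82 and 0.58, were lowest. Their part in the Slc7a5 and Slc7a1 values was not tested.

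Regulators known to act on transporter genes or their products were above background on all 4 arrays, all 13 of them. Mycn was far higher in LSK, with differences of -4.74 in WT and -4.03 in SFRP5, and Myc was at -0.48 and -1.03. Both activate growth genes, transporter genes among them. Nfe2l2, which encodes the antioxidant factor NRF2, was higher in CLP by 1.05 and 1.34. Its inhibitor Keap1 was at 1.18 and -0.27 and its competitor Bach1 at -0.69 and -0.18. Eif2ak4, the kinase GCN2 that senses uncharged tRNA, was at 0.40, or -0.02 with the authors' scaling, and 1.04, and Hif1a was at 0.40, or -0.02, and 0.71. Foxo1 was 3.45-fold higher in WT and 2.84-fold in SFRP5, Foxo3 was at -0.43 and -2.47, Id2 at 2.71 and 1.17, Txnip, an arrestin that lowers glucose uptake, at -1.21 and -1.68, and the ubiquitin ligase Nedd4l was 1.56-fold and 1.99-fold lower. Between genotypes 2 of 13 were at least 2-fold higher in LSK (Id2 at 1.48 and Foxo3 at 1.24) and none in CLP. Between sorts 4 were at least 2-fold higher in CLP and 2 lower in WT, and 4 higher and 4 lower in SFRP5. Over the scalings these counts ran from 2 to 5 and 1 to 4 in WT and from 2 to 4 and 3 to 5 in SFRP5, and the upward count between genotypes in LSK from 1 to 5.

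The list medians between sorts are set beside the 0.02 of all measured genes in either genotype. They were 0.40 in WT and -0.18 in SFRP5 for the regulators, -0.12 and 0.32 for the other plasma membrane transporters, and 0.01 and 0.48 for the lysosomal ones. For the mitochondrial carriers they were 0.21 and -0.11, for mTORC1 and its sensors 0.32 and 0.15, and for the enzymes that use amino acids 0.36 and 0.38. In WT each of these 6 medians changed sign under at least 1 other scaling, as did that of the mTORC1 list in SFRP5, so no direction is given for them.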

How the data were processed

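RNA of 4 sorted bone marrow samples was measured on 4 single-colour arrays of 1 slide, after whole-transcriptome amplification of nanograms of RNA. Array position and group cannot be told apart. Intensity per spot was taken from the deposited scanner output, as the processed signal of Agilent Feature Extraction, whose version is 10.10.1.1 per the file headers and 10.10 in the submitters' processing notes. The flags of detection and outliers in them, 0 or 1, are the authors' scanner output. In the authors' deposited signal table each array's intensity is multiplied by a constant (4.91 to 6.42), of origin not given in the sources used here.

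Values of the 59305 non-control spots were log2-transformed and the array's 75th percentile, 227.2 to 290.9 in intensity, was subtracted. Outlier spots (128 to 160 per array) were left out and spots of a probe averaged. Probe symbols were updated through Entrez IDs found for 30994 of 55681 probes in the RefSeq table (GRCm38.p6), and the brightest probe stood for a gene. Genes counted as measured were well above background on both arrays compared, and were counted at 2-fold. Intensity is no count, and with 1 array per group no test was possible. The number of arrays limits the precision. The difference calculation was tested on simulated data.

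The members and gene lists were chosen with earlier results of these data known. Named are all members, all CD98 partners, all regulators, the 2 highest and 2 lowest genes of each other list by the mean sort difference among genes above background on all 4 arrays, and the 3 genes closest in profile to the member with the widest range. Cell type markers are given as counts with examples, and 1 marker of the erythroid list is not reported here. Alternatives were normexp (chosen after seeing the data, offset 50, on the median spot signal, limma 3.58.1, R 4.3.3), quantile normalization, cyclic loess, centring on the array median, the authors' scaling, the mean of a gene's probes, other filters on dim probes and a 1.5-fold limit. Promoter windows came from RefSeq, the 250 bases before each start.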

Additional observations from a re-analysis of the deposited data

Results flagged for a closer look

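For 3 genes the direction of a difference was opposite on the 2 pairs of arrays in which it could be measured. Each value exceeded 0.0999 in size, which is 1 SD of a difference between replicate spots at or above the 75th percentile. Slc7a6 lay below that percentile, where replicate spots spread more widely, and the -0.14 of Slc1a5 was little beyond 0.0999. With 1 array per group the difference between the pairs was not tested. Slc7a5 was higher in SFRP5 than in WT in LSK (0.99) and lower in CLP (-0.37), but its further probe gave 0.03 and -0.15. Slc7a6 was lower in SFRP5 in LSK (-0.43) and higher in CLP (0.26), which became -0.08 with normexp. Slc1a5 was higher in CLP than in LSK in WT (0.33) and lower in SFRP5 (-0.14), where its further probe gave 0.87 and 0.04. With the authors' scaling the WT value became -0.09, beside -0.32 in SFRP5, so that both lay below 0.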

How the results depend on the processing

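Of 288 values of single members recomputed under the alternatives none of those at 2-fold or more changed sign, 111 moved by more than 0.0999, 22 changed sign, all from a difference of 0.33 or less, and 8 crossed 2-fold. The 288 include values that could not move. The other filters on dim probes leave a member's value as it is, and so does the mean of probes for members with 1 probe. The Slc38a5 sort difference stayed at 4.73 or more in both genotypes. Counts of members at 2-fold kept within 1.5 times the main count except at the 1.5-fold limit (2 between the SFRP5 sorts and 2 between genotypes in LSK) and, between genotypes in LSK, with normexp (1, Slc7a5) and centring on the array median (2, Slc7a5 and Slc3a2). Of the members called between the WT sorts, 2 of 3 were higher, and 2 of 2 with normexp, quantile normalization and cyclic loess and 3 of 3 with centring on the array median. The median of the members between the WT sorts, 0.32, became 0.21 with normexp, -0.18 after quantile normalization, -0.15 after cyclic loess, 0.69 with centring on the array median, -0.10 under the authors' scaling and 0.16 with no filter on dim probes. Between the SFRP5 sorts, -0.10 became -0.25 after cyclic loess and -0.29 under the authors' scaling. Between genotypes in LSK, 0.32 became 0.15 after quantile normalization, 0.14 after cyclic loess, 0.64 with centring on the array median, 0.19 in the authors' table and 0.15 with no filter. Centring on the array median shifts the median of all genes by 0.38 between the WT sorts and 0.32 between genotypes in LSK, and the authors' scaling by -0.41 between the WT sorts, -0.19 between the SFRP5 sorts and -0.13 between genotypes in LSK. The cause of the other shifts was not tested. The share of all 2-fold genes that was higher, 55.5% between the WT sorts, was 66.1% with normexp, 78.6% with centring on the array median and 26.6% in the authors' table. It was 51.1% and 37.6% in the authors' table between the SFRP5 sorts. Between genotypes in LSK it was 47.8%, and 62.8% with normexp, 59.1% with quantile normalization, 63.4% with cyclic loess, 78.3% with centring on the array median and 33.4% in the authors' table, and in CLP 49.7% and 60.1% in the authors' table. The count above background on all 4 arrays was 9 with either flag and with any probe. Normexp on the mean spot signal was not run, since the scanner files used here hold the median. No paired analysis was possible because each group has 1 array and the labels carry no replicate numbers. Signal over background limits the result for Slc7a11 and the precision for Slc7a6.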
